A study of Homo sapiens with 44 samples.

Results

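The neutrophil chemokine genes CXCL1, CXCL2, CXCL3, CXCL5 and CXCL6 belong to 1 gene cluster on chromosome 4, and the chromatin around them was profiled by ATAC-seq, in which a transposase cuts accessible DNA. Every region of the deposited table that carried 1 of these 5 gene names was taken, which gave 127 of 407383 regions. Of these, 46 were assigned to CXCL1, 43 to CXCL2, 21 to CXCL3, 8 to CXCL5 and 9 to CXCL6. All 127 passed the filter on low values. Each region spans 500 bases, so levels can be compared between regions per length. A level is a region's coverage for every megabase (Mb) of coverage in its library, after correction for composition. Differences between groups are in log2 units of that level plus 0.5 and carry their standard error after ±, and folds are ratios of mean levels. Changes are ranked by these log2 differences, and folds can rank regions differently. The assignment is the authors' own and also takes in distal regions, up to 54130 bases from the start site.

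The cells were Ccd18-Co, a fibroblast line from human colon, which stands for 1 genetic background only. The 44 libraries formed 11 groups of 4. The groups were unstimulated cells and cells given IL-1β at 0.1 ng/ml per the labels, or TNF, IL-17A, oncostatin M (OSM), IL-6, IL-13, IL-22, TGF-β1, IFNγ or IFNα at 10 ng/ml. A figure legend of the study gives a lower IL-1β dose. Per the study's methods, all cells had been kept without serum for 72 h and cytokines acted for 24 h. Whether the replicates of a group were separate cultures is not given in the sources used here, so p-values measure the spread between these libraries, which may be technical.

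Total coverage ran from 148.8 to 823.1 Mb per library, with a median of 416.3 Mb. The library labelled IL-6 replicate 4 was the shallowest, and results that change without it are given with both values. For each library, 3 reads correspond to 0.274 to 1.52 per Mb, so regions at that level are poorly measured; these floors cover counting error only. Of the 127 regions, 79 had a mean below 1 per Mb and 6 a mean of at least 10. Start site regions of 10 of 10 fibroblast markers were accessible, with means from 5.01 (DCN) to 38.6 per Mb (COL1A2). An epithelial start site was tested for EPCAM alone (0.85 per Mb), a leukocyte one for CD79A alone (1.36), and endothelial ones for PECAM1, CDH5 and VWF (0.536 to 1.18).

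These chemokines carry an ELR motif before their CXC cysteines and draw neutrophils into tissue through the receptor CXCR2. CXCL6 also acts through CXCR1. Fibroblasts and epithelial cells make them when TNF or IL-1β activates NF-κB, and their genes belong to a cluster that also holds CXCL8 and the platelet chemokines. CXCL1, CXCL2 and CXCL3 are close paralogs, as are CXCL5 and CXCL6.

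The 200 bases before each start site are shown because every one held the same NF-κB string. Sequences are from RefSeq (GRCh38.p14) and are written 5′ to 3′ on the strand of the gene. Capitals mark the string.
CXCL1, chr4:73869193-73869392, plus strand: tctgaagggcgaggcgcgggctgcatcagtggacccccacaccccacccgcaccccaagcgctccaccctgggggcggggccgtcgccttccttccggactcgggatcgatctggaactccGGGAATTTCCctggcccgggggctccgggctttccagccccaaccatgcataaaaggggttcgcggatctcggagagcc
CXCL2, chr4:74099196-74099395, minus strand: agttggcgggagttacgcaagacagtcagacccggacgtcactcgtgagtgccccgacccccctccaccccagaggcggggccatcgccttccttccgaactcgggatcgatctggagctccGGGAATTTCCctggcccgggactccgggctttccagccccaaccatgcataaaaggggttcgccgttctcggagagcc
CXCL3, chr4:74038690-74038889, minus strand: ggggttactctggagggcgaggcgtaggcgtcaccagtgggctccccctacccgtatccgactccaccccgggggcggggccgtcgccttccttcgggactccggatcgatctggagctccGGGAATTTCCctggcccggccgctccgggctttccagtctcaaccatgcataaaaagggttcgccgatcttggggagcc
CXCL5, chr4:73998678-73998877, minus strand: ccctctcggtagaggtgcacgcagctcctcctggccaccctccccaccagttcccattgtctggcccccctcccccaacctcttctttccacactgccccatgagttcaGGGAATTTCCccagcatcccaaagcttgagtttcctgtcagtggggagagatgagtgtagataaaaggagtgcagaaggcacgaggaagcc
CXCL6, chr4:73836478-73836677, plus strand: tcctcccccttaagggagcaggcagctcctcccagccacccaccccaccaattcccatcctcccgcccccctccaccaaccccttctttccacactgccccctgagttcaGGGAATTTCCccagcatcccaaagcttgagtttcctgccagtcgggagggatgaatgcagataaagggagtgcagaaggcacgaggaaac

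The search was for GGGNNTTNCC on either strand, and each promoter held 1 match, GGGAATTTCC in all 5. Its last base lay 69 bases before the start site in CXCL2, 70 in CXCL1 and CXCL3, 81 in CXCL6 and 82 in CXCL5. Of 35116 RefSeq promoter windows of this length, 4.28% held the string. Over the whole 200 bases, CXCL1, CXCL2 and CXCL3 were 77.2 to 80.8% identical to each other, and CXCL5 and CXCL6 were 86.1% identical. Identity between these 2 sets was 52.4 to 54.8%. Windows of 75 bases that occur again within the cluster were found in 3 of the 127 regions, with at most 5.2% of windows, in the CXCL3 promoter region. How reads from near-identical stretches were placed was not tested.

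All 5 promoters were accessible without any cytokine. A gene's main promoter region is its promoter-class region with the highest mean coverage. Unstimulated levels were 15.2 ± 1.16 per Mb for CXCL2 (mean ± SD, n = 4 here and below), 12.4 ± 2.28 for CXCL3, 11.7 ± 0.264 for CXCL1, 5 ± 0.96 for CXCL5 and 3.84 ± 0.825 for CXCL6. The CXCL5 and CXCL6 promoters were thus the least open. The most accessible of the 127 regions was a distal one, 47977 bases downstream of the CXCL1 start (chr4:73917120-73917620). It held 22.5 to 40.7 per Mb over the 44 libraries, and no cytokine changed it past the threshold. Its largest difference from unstimulated was 0.18 (log2), with IL-22 (limma adjusted p = 0.749).

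The first question was whether each cytokine changed accessibility over the 5 genes. With TNF, 29 of 127 regions rose and 0 fell (22.8% raised), beside 2.67% raised and 1.69% lowered among all 407176 tested regions. With IL-1β, 29 rose and 0 fell, beside a background of 1.72% raised and 1.79% lowered. The median change of the 127 regions was 0.31 with TNF and 0.3 with IL-1β on the log2 scale, against -0.039 and 0.025 over all tested regions. Each cytokine raised 29 regions, and 23 were raised by both, 79.3% of each list. The 2 comparisons share the unstimulated libraries. For both, a region was called where limma's Benjamini-Hochberg adjusted p over all regions was under 0.05.

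At the CXCL1 promoter (chr4:73869143-73869643, which spans the start site, coding sequence, UTR and intron), unstimulated libraries held 11.5, 11.8, 12 and 11.4 per Mb. CXCL1 is among the main CXCR2 ligands made by stromal cells. With TNF they held 32.2, 32.9, 35.4 and 34.3, and with IL-1β 27.3, 24.5, 28 and 26.7. Neither group overlapped the unstimulated one, and the TNF libraries were all above the IL-1β libraries. The log2 difference from unstimulated was 1.49 ± 0.15 (SE) with TNF (2.89-fold, limma adjusted p = 2.09e-16) and 1.16 ± 0.15 with IL-1β (2.28-fold, limma adjusted p = 2.93e-10).

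The CXCL3 promoter (chr4:74038508-74039008) rose less. Unstimulated libraries held 14.4, 13.9, 12 and 9.37 per Mb. TNF libraries held 20.7, 17.7, 25.9 and 25.8, and IL-1β libraries 19.4, 22.7, 19.8 and 17.6. Every treated library was above every unstimulated one. The difference was 0.83 ± 0.15 with TNF (limma adjusted p = 1.36e-05) and 0.67 ± 0.15 with IL-1β (limma adjusted p = 0.00123).

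The CXCL2 promoter (chr4:74099051-74099551), the most open of the 5 at rest, moved least. Its unstimulated libraries held 16.2, 15, 13.6 and 15.8 per Mb, its TNF libraries 20.7, 24.4, 18.3 and 19, and its IL-1β libraries 25.7, 16.8, 22.5 and 27.1. All treated libraries were above the unstimulated ones, by a small margin for IL-1β replicate 2. It rose with IL-1β, by 0.57 ± 0.14 (limma adjusted p = 0.00471; 0.062 without IL-1β replicate 4). With TNF the difference of 0.43 ± 0.14 did not pass (limma adjusted p = 0.0621; 0.0468 without IL-6 replicate 4 in the shared fit). A lncRNA gene, ENSG00000289241, overlaps this region too, and ENSG00000287037 overlaps the CXCL5 one.

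The CXCL5 and CXCL6 promoters, low at rest, stood 2.56-fold (CXCL6) and 1.93-fold (CXCL5) higher with TNF. At CXCL6 (chr4:73836340-73836840), unstimulated libraries held 5.02, 3.79, 3.38 and 3.18 per Mb, TNF libraries 9.89, 9.44, 12.4 and 7.73, and IL-1β libraries 10.3, 7.67, 8.92 and 6.22. At CXCL5 (chr4:73998468-73998968), they held 4.35, 5.61, 6.01 and 4.02, then 12.3, 9.82, 7.15 and 9.27 with TNF, and 7.69, 7.78, 11.8 and 7.58 with IL-1β. The treated groups lay above the unstimulated one at both genes. CXCL6 rose by 1.25 ± 0.24 with TNF (limma adjusted p = 3.23e-05) and by 1.01 ± 0.24 with IL-1β (limma adjusted p = 0.0021). CXCL5 rose by 0.87 ± 0.23 with TNF (limma adjusted p = 0.00852; 0.0764 without TNF replicate 1 and 0.0521 without unstimulated replicate 4), while its 0.74 ± 0.23 with IL-1β lay at the threshold (limma adjusted p = 0.0501; 0.0381 without IL-6 replicate 4).

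**Figure D1:**
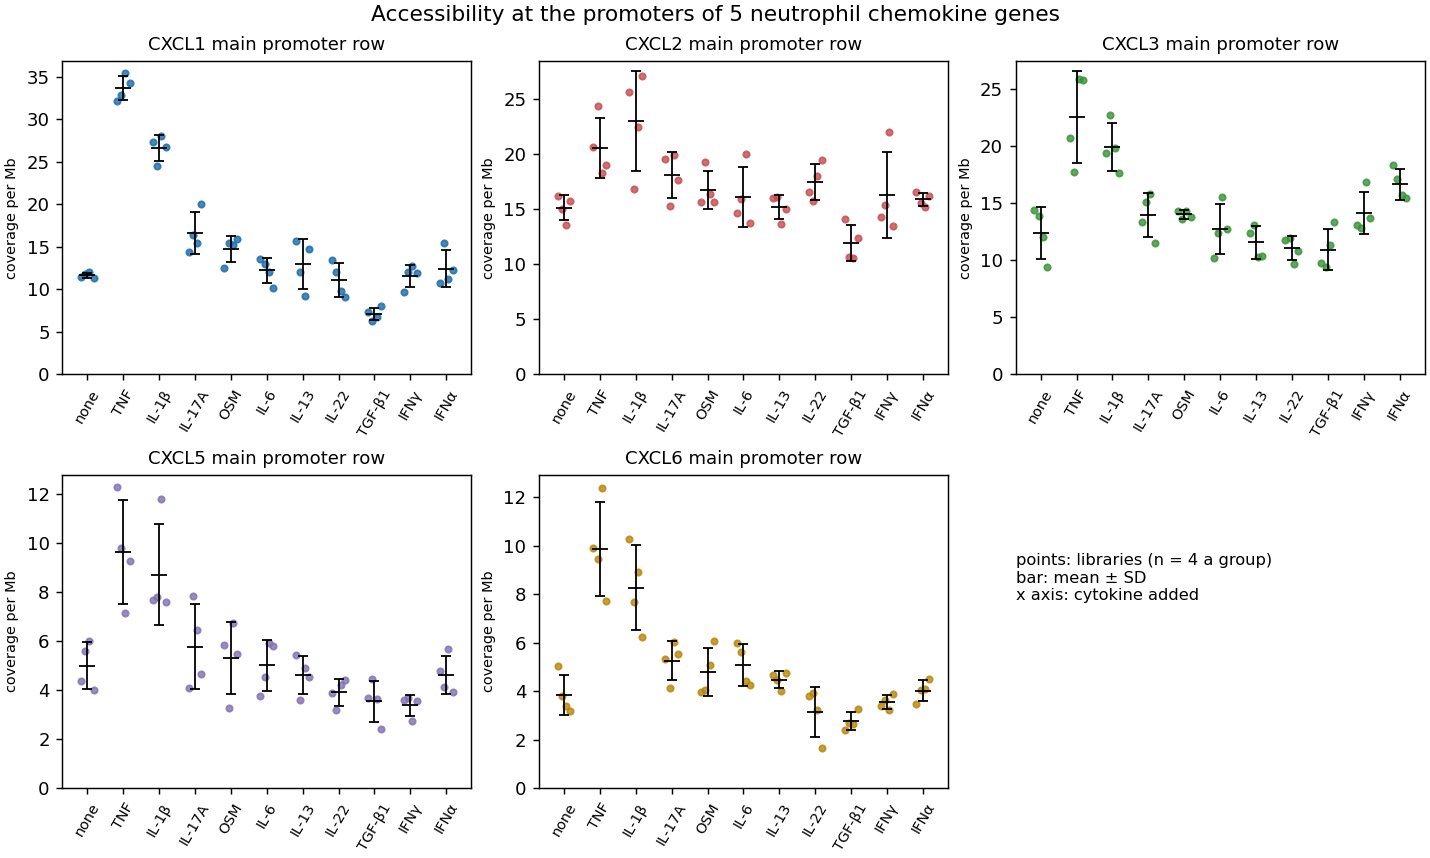
Coverage per Mb at the main promoter region of each gene (y axis) in the 4 libraries of each group (points) with mean ± SD (bars), by cytokine (x axis). TNF and IL-1β stand highest at all 5 genes, and TGF-β1 lowest at CXCL1, where its mean is 7.12 against 11.7 without cytokine.

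Ordered by level, TNF came first and IL-1β second at CXCL1, CXCL3, CXCL5 and CXCL6, and the order of this pair was the reverse at CXCL2. At CXCL1 the steps from TNF to IL-1β (33.7 to 26.6 per Mb) and from IL-1β to IL-17A (16.6) were larger than the spread, taken as the larger SD of both neighbours. So was that from IL-22 (11.1) to TGF-β1 (7.12). Neighbours from IL-17A down to IL-22 did not differ beyond it. At CXCL2 the spread was exceeded in 1 of 10 steps, from unstimulated to TGF-β1 (15.2 to 11.9). At CXCL3 it was exceeded between IL-1β and IFNα (19.9 and 16.6) and between IFNα and IFNγ (14.1). At CXCL5 the step from IL-1β to IL-17A (8.72 to 5.77) exceeded it, and at CXCL6 those from IL-1β to IL-17A (8.29 to 5.25) and from IL-13 to IFNα (4.48 to 4.02).

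Larger changes lay inside the genes and behind them. Between 300 and 5000 bases downstream of the 5 start sites there were 25 regions, a window chosen after the values were seen. TNF raised 20 of these (80%) and IL-1β raised 21 (84%), with median changes of 1.66 and 1.7. At the 5 promoters the medians were 0.87 and 0.74. Among the 97 other regions, TNF raised 5 (5.15%) and IL-1β 4 (4.12%), with medians of 0.13 and 0.11. None of the 25 held GGGNNTTNCC, 3 held an AP-1 string (TGANTCA) and 10 a C/EBP string (TTGCNNAA, or TTNNGCAA on the other strand). Over all 127 regions the shares were 7.87% for NF-κB, 26.8% for AP-1 and 35.4% for C/EBP, beside 8.99%, 25.7% and 25.8% over all regions. The absence of a match says only that these letters are not in the window.

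**Figure D2:**
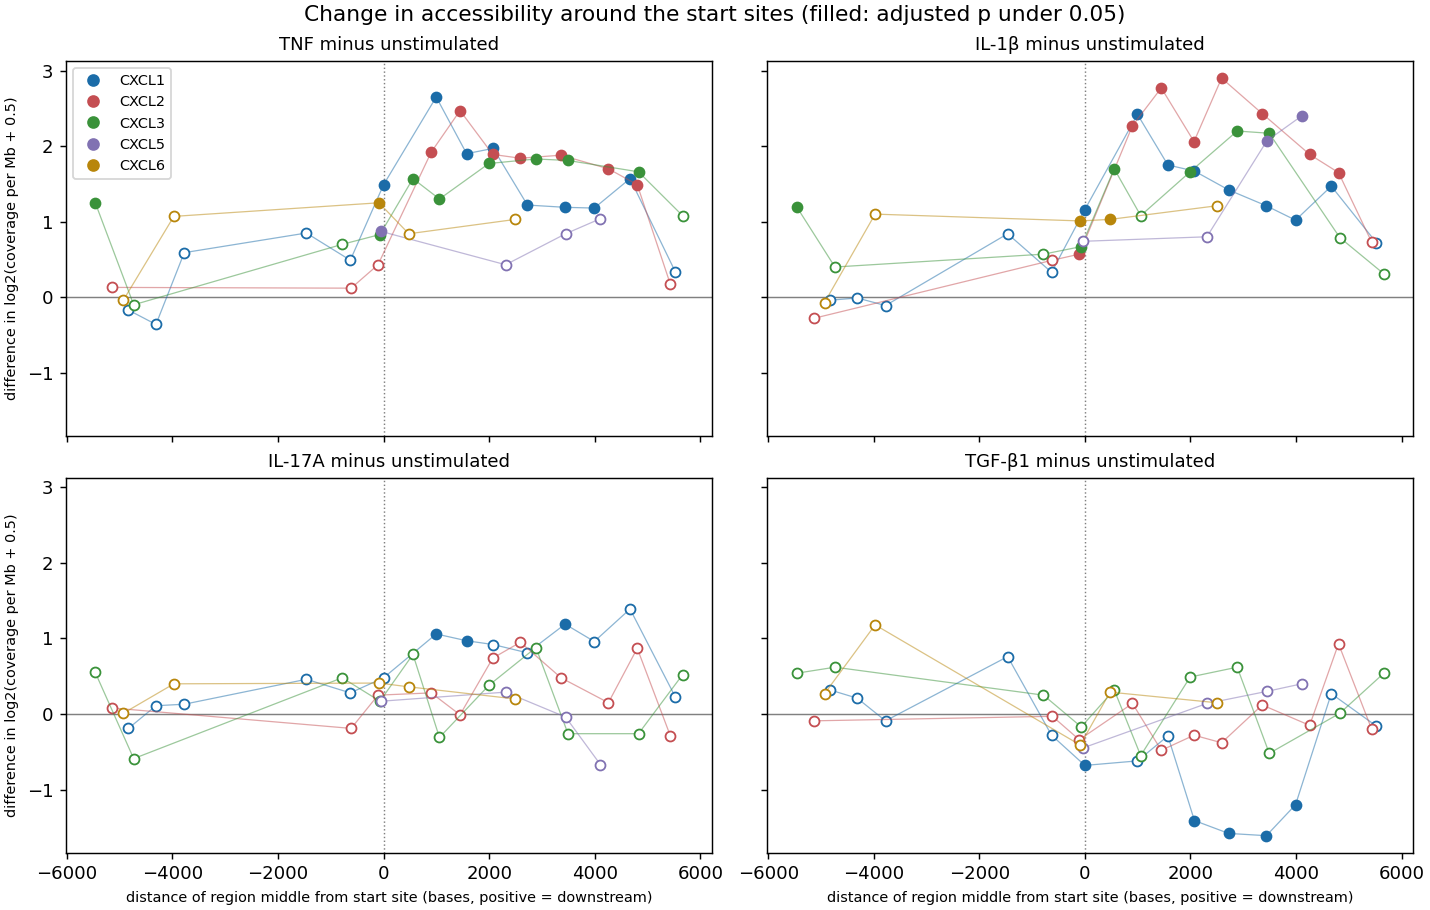
Difference in log2(coverage per Mb + 0.5) from unstimulated (y axis) against the distance of each region's middle from its gene's start site in bases (x axis, downstream positive), with 1 colour per gene and filled points where the adjusted p was under 0.05. With TNF and IL-1β the filled points lie mostly from 0 to 5000 bases, whereas the filled points of TGF-β1 in the plotted range are all below 0 and at CXCL1.

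At CXCL1 all 7 regions of this window rose with TNF and all 7 with IL-1β. The first covers coding sequence, UTR and intron (chr4:73870140-73870640, middle 997 bases from the start). Unstimulated libraries held 3.79, 3.16, 4.43 and 4.8 per Mb there. TNF libraries held 27.6, 27.4, 30.8 and 25.2, and IL-1β libraries 24.4, 21.3, 26.2 and 22.4. Without cytokine this part of the gene was far less accessible than the promoter, and with TNF or IL-1β it came near the promoter's level. The difference was 2.65 ± 0.22 with TNF (6.86-fold, limma adjusted p = 1.92e-23) and 2.42 ± 0.22 with IL-1β (5.83-fold, limma adjusted p = 5.66e-20). By log2 difference this was the largest TNF change among the 127 regions. The TNF fold was higher in a low region 14053 bases past the CXCL1 start (8.8-fold). The summed level of the 7 regions was 32.8 ± 1.78 per Mb without cytokine, 112 ± 6.35 with TNF and 104 ± 10.2 with IL-1β.

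The CXCL2 body and 3′ side were nearly closed at rest. All 7 regions of the window rose with each cytokine (the TNF call at 4806 bases was at 0.0531 without TNF replicate 2 and 0.0553 without unstimulated replicate 3), and their summed level went from 5.24 ± 1.68 per Mb to 29.5 ± 1.95 with TNF and 41.7 ± 4.48 with IL-1β. In the region with the largest TNF change (chr4:74097497-74097997, coding sequence, UTR and intron), unstimulated libraries held 1.07, 0.377, 0.829 and 1.45 per Mb. TNF libraries held 10, 5.65, 7.67 and 5.87, and IL-1β libraries 8.27, 10.5, 7.48 and 9.52. The treated groups lay well above, by 2.47 ± 0.37 with TNF (limma adjusted p = 4.58e-08) and 2.77 ± 0.37 with IL-1β (limma adjusted p = 7.76e-10).

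Just past the CXCL2 transcript end lay the largest IL-1β change of the 127 regions by log2 difference (chr4:74096354-74096854, 2591 bases from the start). Unstimulated libraries held 1.41, 0, 1.67 and 1.1 per Mb, TNF libraries 5.99, 2.74, 3.36 and 6.27, and IL-1β libraries 10.9, 8.73, 9.02 and 9.85. The IL-1β libraries were above all TNF libraries. The difference was 2.9 ± 0.38 with IL-1β (9.23-fold, limma adjusted p = 1.55e-10) and 1.84 ± 0.38 with TNF (4.4-fold, limma adjusted p = 0.000142).

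At CXCL3, 6 of 6 such regions rose with TNF and 4 with IL-1β. The TNF call at 1058 bases (1.3 ± 0.38, limma adjusted p = 0.0227) was lost without unstimulated replicate 2 or 3 or TNF replicate 1 or 3, at 0.0608 to 0.123. The largest change with both cytokines was in a region behind the gene (chr4:74035553-74036053, 2886 bases from the start). It held 0.329, 0, 1.76 and 0.518 per Mb without cytokine, 2.72, 3.83, 2.13 and 3.6 with TNF, and 4.77, 2.38, 6.66 and 3.43 with IL-1β. The groups did not overlap, although the values are low. It rose by 1.83 ± 0.39 with TNF (limma adjusted p = 0.000319) and by 2.2 ± 0.39 with IL-1β (limma adjusted p = 7.65e-06). The 6 regions summed to 4.7 ± 0.905 per Mb without cytokine, 20.2 ± 0.786 with TNF and 20.3 ± 2.5 with IL-1β.

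CXCL5 and CXCL6 have fewer regions. Behind CXCL5 (chr4:73994318-73994818, 4109 bases from the start), unstimulated libraries held 0.36, 1.15, 0.228 and 0.522 per Mb, TNF libraries 1.48, 1.8, 1.15 and 2.03, and IL-1β libraries 3.78, 4.42, 6.21 and 5.31. All IL-1β libraries were above all TNF libraries. IL-1β raised this region by 2.4 ± 0.39 (8.74-fold, limma adjusted p = 9.76e-07), and the 1.04 ± 0.39 with TNF did not pass (limma adjusted p = 0.131). Of 3 regions in the window at CXCL5, IL-1β raised 2 and TNF 0. At CXCL6, IL-1β raised 1 of 2 and TNF 0 of 2. The raised one covers coding sequence and intron (chr4:73836905-73837405) and changed by 1.03 ± 0.3 (limma adjusted p = 0.0275, from 0.0556 to 0.139 when unstimulated replicate 1, 2 or 3 or IL-1β replicate 1, 2 or 4 was left out). It held 1.62, 2.05, 1.77 and 2.42 per Mb without cytokine and 6.03, 4.34, 3.23 and 4.72 with IL-1β, with no overlap.

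At the 3′ end of CXCL6, the region at chr4:73838923-73839423 had the largest IL-1β change of that gene without passing. It held 0.627, 0.812, 0.455 and 0.337 per Mb without cytokine, 2.6, 3.26, 1.91 and 0.701 with IL-1β, and 2.17, 0.652, 2.4 and 1.8 with TNF. In both treated groups 1 library lay among the unstimulated values. The difference was 1.21 ± 0.4 with IL-1β (limma adjusted p = 0.0638) and 1.03 ± 0.4 with TNF (limma adjusted p = 0.143).

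**Figure D3:**
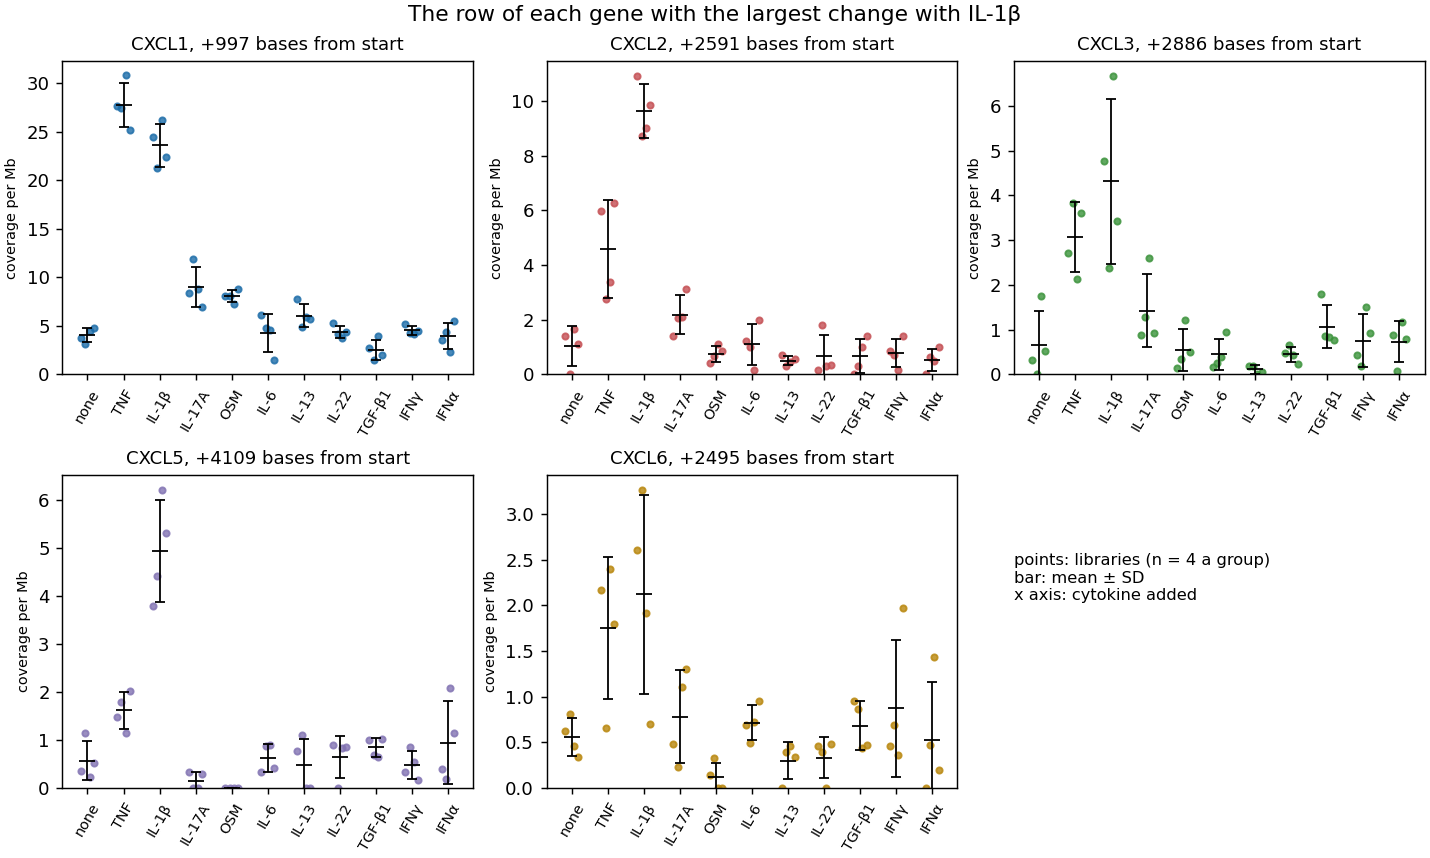
Coverage per Mb (y axis) in the 4 libraries of each group (points) with mean ± SD (bars), by cytokine (x axis), for the region of each gene with the largest change with IL-1β. At CXCL2 and CXCL5 the IL-1β libraries lie above all TNF libraries, and at CXCL6 the groups overlap.

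IL-1β, used at a lower dose, was set against TNF directly. Of 127 regions, 1 was higher with IL-1β and 1 lower, beside 0.316% raised and 1% lowered among all tested regions. The higher one was the region behind CXCL5 just described, with a difference of 1.36 ± 0.39 (limma adjusted p = 0.0496). The lower one lay 50481 bases downstream of CXCL1 (chr4:73919624-73920124). It held 0.304, 0.5, 0.808 and 0.229 per Mb with IL-1β and 3.39, 2.2, 1.36 and 1.28 with TNF, which did not overlap, and differed by -1.38 ± 0.39 (limma adjusted p = 0.0441). Each call was lost in some alternatives, with 0 or 1 called when any IL-1β library, or any TNF library, was left out. At the 5 promoters no difference between the 2 cytokines passed.

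IL-17A is a T cell cytokine known for neutrophil recruitment at barrier surfaces. It raised 3 of 127 regions and lowered 0, beside 0.0329% raised and 0.00688% lowered among all tested regions. All 3 belonged to CXCL1, and all 3 were also raised by TNF and by IL-1β. The largest called change was 3439 bases from the CXCL1 start (chr4:73872582-73873082, outside any annotated gene). Unstimulated libraries held 9.28, 8.65, 8.83 and 9.04 per Mb, IL-17A libraries 22.6, 26.9, 19.1 and 16.7, TNF libraries 20.5, 18.7, 22.7 and 22.4, and IL-1β libraries 21.5, 21.2, 22.8 and 20.3. IL-17A here reached the level of TNF and IL-1β. It changed by 1.19 ± 0.18 with IL-17A (2.38-fold, limma adjusted p = 7.08e-05), 1.19 ± 0.18 with TNF (limma adjusted p = 8.41e-08) and 1.21 ± 0.18 with IL-1β (limma adjusted p = 5.84e-08).

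The other IL-17A changes were in the CXCL1 gene body, by 1.06 ± 0.22 at 997 bases (limma adjusted p = 0.0124) and 0.97 ± 0.21 at 1573 bases (limma adjusted p = 0.0276). Without a mean-variance trend 0 regions were called, and 1 was called without unstimulated replicate 1, IL-17A replicate 2 or IL-17A replicate 3. The CXCL1 promoter held 14.4, 16.4, 15.5 and 20.1 per Mb with IL-17A, above all unstimulated libraries, but its 0.48 ± 0.15 did not pass (limma adjusted p = 0.387). At the CXCL2, CXCL3, CXCL5 and CXCL6 promoters the IL-17A differences were 0.17 to 0.41, and none passed.

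IL-1β (0.1 ng/ml per the labels) was also set against IL-17A (10 ng/ml), so dose differs along with the cytokine. Coverage was higher with IL-1β in 17 of 127 regions and lower in 0, beside 1.02% raised and 1.27% lowered among all tested regions. The 17 were 3 of CXCL1, 6 of CXCL2, 5 of CXCL3 and 3 of CXCL5. The largest difference was behind CXCL5 (chr4:73994318-73994818), where IL-17A libraries held 0.335, 0, 0 and 0.282 per Mb, at or under the level of 3 reads, against 3.78 to 6.21 with IL-1β. It was 3.07 ± 0.39 (limma adjusted p = 2.13e-10). At the CXCL1 region with the strongest IL-17A change no difference passed. At the CXCL1 promoter IL-1β was higher by 0.67 ± 0.15 (limma adjusted p = 0.00171). Without IL-1β replicate 1 the count was 11.

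TGF-β1 is known for driving fibroblasts to contract and lay down matrix. It lowered 8 of 127 regions (6.3%) and raised 2 (1.57%), beside 1.98% raised and 1.52% lowered among all tested regions. The raised share did not exceed the background. The median change over all regions was 0.153 with TGF-β1, and over the 29105 tested promoter-class regions it was -0.043, with 3.72% of these lowered. Of the 8, 7 belonged to CXCL1, and 4 of these formed a stretch from 2076 to 3992 bases past its start, which runs from the 3′ UTR outwards. The largest fall was again 3439 bases from the start. TGF-β1 libraries held 3.1, 3.46, 1.58 and 2.6 per Mb there, against 8.65 to 9.28 without cytokine. Every TGF-β1 library was below every unstimulated one, with a log2 difference of -1.61 ± 0.18 (limma adjusted p = 3.56e-13). The summed level of the 7 CXCL1 regions in the window was 15.2 ± 1.42 per Mb with TGF-β1 and 32.8 ± 1.78 without.

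The CXCL1 promoter fell as well, to 7.35, 6.34, 6.8 and 7.99 per Mb, below all unstimulated libraries (log2 difference -0.68 ± 0.15, limma adjusted p = 0.00116). The other 4 promoters had differences of -0.45 to -0.17, and none passed. Of the downstream regions, 0 of 7 at CXCL2 and 0 of 6 at CXCL3 were lowered. Without cytokine these summed to only 5.24 and 4.7 per Mb, against 32.8 for the 7 at CXCL1. Single regions there lay near the level of 3 reads, so a fall could hardly have been measured. The CXCL1 region at 3439 bases thus rose with TNF, IL-1β and IL-17A and fell with TGF-β1. A C/EBP string was found in 25.8% of all regions, and in none of the lowered regions at 2076, 2725 and 3992 bases. Whether such strings bear on these changes was not tested. The region at 3439 bases held 2 C/EBP strings, shown here from hg38 on the plus strand with the string in capitals.
CXCL1 3′ side, chr4:73872650-73872697: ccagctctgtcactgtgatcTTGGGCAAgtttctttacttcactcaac
CXCL1 3′ side, chr4:73873047-73873082: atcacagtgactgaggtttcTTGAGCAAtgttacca

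The remaining TGF-β1 calls were distal. The 2 raised regions lay 14053 and 50481 bases past the CXCL1 start. The first (chr4:73883196-73883696) held 0, 0.632, 0.261 and 0.865 per Mb without cytokine and 2.4, 4, 2.18 and 3.17 with TGF-β1. No library overlapped, and it changed by 1.94 ± 0.38 (limma adjusted p = 0.000102). TNF also raised it, to 3.82, 6.38, 3.02 and 2.25 per Mb (2.23 ± 0.38, limma adjusted p = 1.83e-06). IFNγ raised it to 1.76, 1.15, 1.91 and 1.94 per Mb (1.3 ± 0.38, limma adjusted p = 0.0408). That was the only call among the 127 regions with IFNγ (1 raised, 0 lowered), beside 1.48% raised and 0.275% lowered among all tested regions. It was lost without unstimulated replicate 1 or 3 or without IFNγ replicate 1, 3 or 4 (limma adjusted p from 0.102 to 0.285). The weakest result, 0.285, was without unstimulated replicate 1.

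The region at 50481 bases held 0.493, 0, 0.559 and 0 per Mb without cytokine, at or under 3 reads in every library. TNF changed it by 1.76 ± 0.39 (limma adjusted p = 0.000707) and TGF-β1, with 1.67, 1.56, 1.11 and 2.34 per Mb, by 1.57 ± 0.39 (limma adjusted p = 0.0056). Distal regions lowered by TGF-β1 lay 22759 and 42586 bases past the CXCL1 start and at -19602 bases from the CXCL5 start, with changes of -0.63 to -0.75. All 3 calls were lost when single libraries were left out. The first was at 0.0633 to 0.0836 without unstimulated replicate 1, 2 or 3 or TGF-β1 replicate 2, 3 or 4 (limma adjusted p). The second was at 0.0605 to 0.0984 without unstimulated replicate 2 or TGF-β1 replicate 1 or 4, and the third at 0.0732 without unstimulated replicate 3. Of these 3, the first had risen with TNF (0.99 ± 0.18, limma adjusted p = 1.41e-05) and with IL-1β (0.75 ± 0.18, limma adjusted p = 0.00327).

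**Figure D4:**
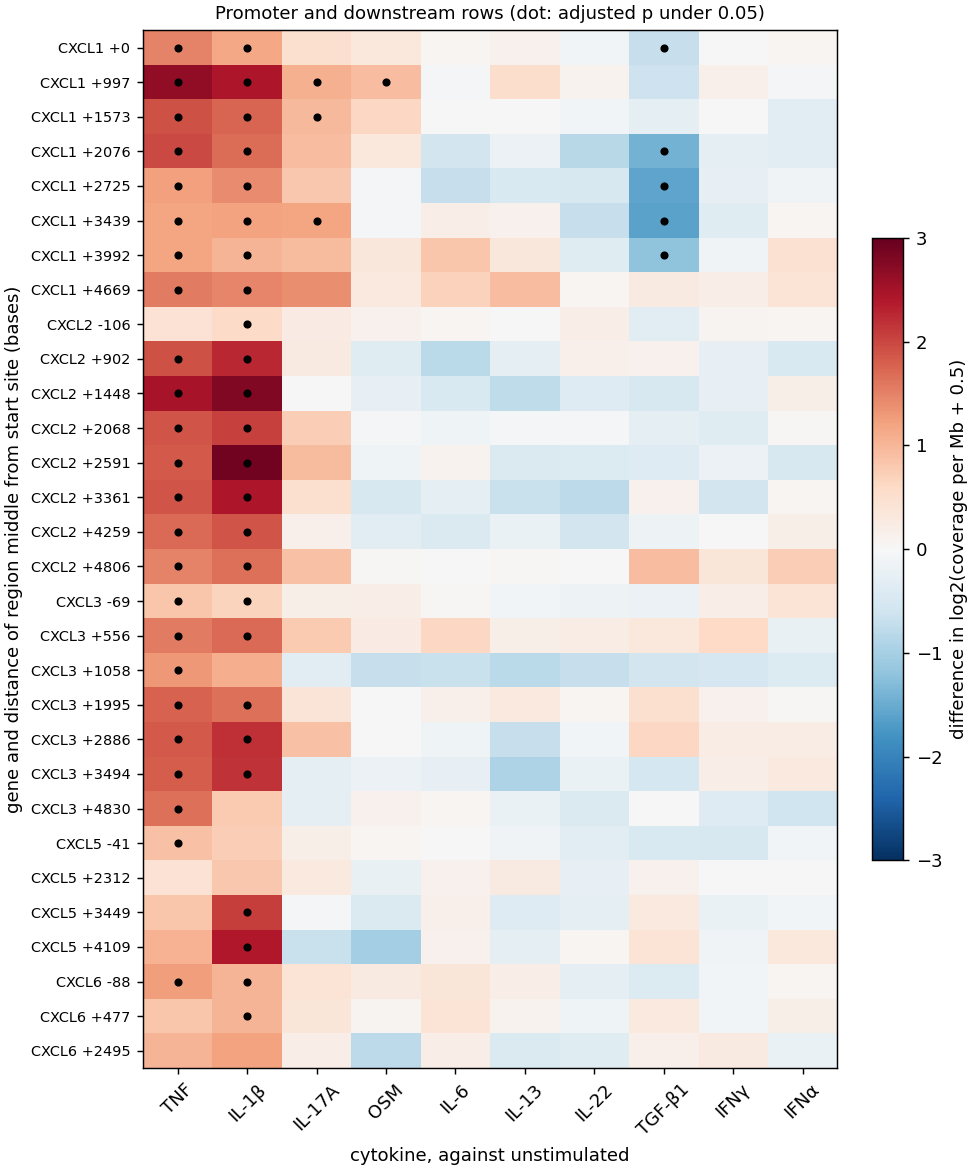
Difference in log2(coverage per Mb + 0.5) from unstimulated (colour) for the 5 main promoter regions and the 25 regions 300 to 5000 bases downstream (y axis, gene and distance of the middle from the start site in bases) with each cytokine (x axis), with a dot where the adjusted p was under 0.05. Dots fill most of the TNF and IL-1β columns, the TGF-β1 column has 5, all at CXCL1, and the IL-6, IL-13, IL-22, IFNγ and IFNα columns have none.

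OSM, an IL-6 family cytokine, raised 3 of 127 regions (2.36%) and lowered 2 (1.57%). Among all tested regions 1.55% were raised and 1.29% lowered, so these counts are not set apart from the background. The median over all regions was -0.216 with OSM. In the CXCL1 gene body (997 bases), OSM libraries held 8.12, 8.12, 7.28 and 8.79 per Mb, above every unstimulated library, a change of 0.93 ± 0.22 (limma adjusted p = 0.00334). The largest OSM change by size among the called regions was at -5463 bases from the CXCL3 start (chr4:74043902-74044402). It held 3.29, 4.12, 4.58 and 1.89 per Mb with OSM and 2.64, 0, 2.18 and 0.878 without. The groups overlapped, and the change was 1.3 ± 0.35 (limma adjusted p = 0.0144, 0.281 without unstimulated replicate 2). TNF and IL-1β raised the same region by 1.25 and 1.2, calls that were also lost without that library.

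With OSM the region 42586 bases past the CXCL1 start (chr4:73911729-73912229) held 5.02, 2.91, 5.54 and 6.56 per Mb, below the 9.34, 11.8, 10.1 and 10 of unstimulated libraries. The log2 difference was -1.02 ± 0.19 (limma adjusted p = 5.4e-05), and this was the OSM call that no alternative removed. A region 13961 bases past the CXCL2 start was at 0 in all 4 OSM libraries and held 0.533 to 0.902 per Mb without cytokine. With a floor of 3 reads per library it was at least 1.7-fold lower with OSM (-1.25 ± 0.37, limma adjusted p = 0.0362). This call was lost without any 1 of the OSM libraries or without unstimulated replicate 2, 3 or 4 (limma adjusted p from 0.054 to 0.102). Without unstimulated replicate 4 or OSM replicate 3, 2 OSM calls were left, and without unstimulated replicate 2 or OSM replicate 1 or 2, 3 were.

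IL-13, a type 2 cytokine, raised 2 of 127 regions (1.57%) and lowered 0, beside 0.73% raised and 0.88% lowered among all tested regions. A count of 2 is not set apart from that background. The larger change lay 6694 bases past the CXCL1 start (chr4:73875837-73876337). IL-13 libraries held 4.54, 5.71, 2.66 and 3.4 per Mb and unstimulated ones 0.716, 2.54, 1.03 and 0.895. These groups did not overlap, and the change was 1.4 ± 0.36 (limma adjusted p = 0.0123). Neither TNF nor IL-1β changed this region. With 0.584, 0.731, 0.196 and 1.32 per Mb, the TNF libraries were within or below the unstimulated range. The IL-13 counts were 0 or 1 without unstimulated replicate 1, 3 or 4 or IL-13 replicate 2, 3 or 4.

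No region passed with IL-6, IL-22 or IFNα by limma. With IL-6, 0 of 127 were called, beside 0.0427% raised and 0.0643% lowered among all tested regions. IL-22 gave 0 calls, beside 0.0344% and 0.00221%, and IFNα 0 calls, beside 0.513% and 0.334%. An unadjusted p under 0.05 was found in 11 regions with IL-6, 8 with IL-22 and 5 with IFNα. The share of all tested regions under that looser threshold was not taken, so these counts have no background to be read against. The nearest to a call with IL-22 was the CXCL1 region at 3439 bases, with -0.7 ± 0.18 (limma adjusted p = 0.15), and with IL-6 that at 3992 bases, with 0.84 ± 0.24 (limma adjusted p = 0.135). The IL-6 libraries held 5.25, 5.92, 7.94 and 12.1 per Mb there, the highest in replicate 4, the shallowest library. At the CXCL3 promoter IFNα had the third highest level, and its 0.42 did not pass (limma adjusted p = 0.227).

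Over all regions of a gene, coverage summed to 125 ± 3.06 per Mb for CXCL1 without cytokine, and TNF brought it to 2.04 times, IL-1β to 1.9, IL-17A to 1.46 and TGF-β1 to 0.839 times that mean. CXCL2 stood at 1.77 times with TNF and 2.18 with IL-1β, CXCL3 at 1.92 and 1.84, CXCL5 at 1.29 and 1.66, and CXCL6 at 1.89 and 1.6. IL-17A left these 4 genes at 0.939 to 1.11 times. OSM brought CXCL6 to 1.33 and CXCL2 to 0.754 times, and TGF-β1 brought CXCL6 to 1.32 times. The median log2 change over all regions was -0.216 with OSM and 0.153 with TGF-β1, and the sums were not adjusted for it. The CXCL6 promoter itself was lower with TGF-β1 (2.75 against 3.84 per Mb), a difference that did not pass. Summed over the window from 300 to 5000 bases downstream only, IL-17A stood at 1.65 times at CXCL2 and 1.39 at CXCL6. At CXCL3 it stood at 1.3 and at CXCL5 at 0.796 times. No test was made of these sums.

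Genes of the same pathway were read at the tested region nearest to their start site. Among all promoter-class regions, TNF raised 1.76% and lowered 1.25%, and IL-1β raised 1.37% and lowered 1.59%, with median changes of -0.032 and -0.005. Of 4 further chemokine genes of the cluster, 3 had such a region. That of CXCL8 rose by 3.12 ± 0.3 with TNF (limma adjusted p = 1.56e-18) and 2.6 ± 0.3 with IL-1β (limma adjusted p = 2.86e-13), from 2.27 ± 0.539 to 23.8 ± 5.44 and 16.2 ± 2.64 per Mb. CXCL8 encodes a further neutrophil chemokine, and its start region was less accessible at rest than the 5 promoters. With IL-13 it was lowered, by -1.3 ± 0.3 (limma adjusted p = 0.00309). The platelet chemokine genes PF4 and PF4V1, which lie among the 5 genes, were not called with either cytokine (differences of -0.18 to 0.3). Of 5 tested neighbours outside the cluster, 0 were called with TNF and 0 with IL-1β.

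Of 3 growth factors for neutrophils and their precursors, 2 rose with each cytokine, beside 1.76% (TNF) and 1.37% (IL-1β) of all promoter-class regions. CSF3, which encodes G-CSF, rose by 1.12 ± 0.32 with TNF (limma adjusted p = 0.0175) and 2.41 ± 0.32 with IL-1β (limma adjusted p = 4.26e-10). CSF2, which encodes GM-CSF, rose by 1.68 ± 0.36 (limma adjusted p = 0.00035) and 1.24 ± 0.36 (limma adjusted p = 0.0236). The median change of the 3 was 1.12 with TNF and 1.24 with IL-1β.

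Among 12 genes of NF-κB subunits and feedback, TNF raised 6 and IL-1β 2, beside 1.76% and 1.37% of all promoter-class regions. None fell with either. The median change was 0.48 with TNF and 0.18 with IL-1β. BIRC3, a ubiquitin ligase of the TNF receptor complex, rose by 2.02 ± 0.19 with TNF (limma adjusted p = 1.99e-19) and 1.33 ± 0.19 with IL-1β (limma adjusted p = 5.73e-09). With TNF, the subunit genes NFKB1 and NFKB2 rose by 1.04 ± 0.22 and 1.04 ± 0.16, and NFKBIA, the inhibitor IκBα, by 0.82 ± 0.15. IL-1β also raised NFKB2, by 0.54 ± 0.16 (limma adjusted p = 0.0289).

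Of 9 genes for C/EBP and AP-1 factors, TNF raised FOSL1 (0.42 ± 0.12) and lowered FOS (-0.5 ± 0.14), and IL-1β raised CEBPB (0.54 ± 0.14). Of 19 receptor genes for the added cytokines, 1 rose with TNF, IL6ST (0.38 ± 0.11), and 1 with IL-1β, IL13RA1 (0.66 ± 0.17), with a list median of 0.1 and 0.06. With so few genes, 1 call is not set apart from the promoter-class share. Of the 3 receptors and scavengers of these chemokines, 1 had a tested region, and it was not called with either. With the other cytokines, the C/EBP and AP-1 list had 4 raised genes with OSM (2.21% of promoter-class regions rose), 3 with IFNγ (1.71%) and 1 each with IL-17A (0.079%), IL-6 (0.199%), IL-13 (1.03%) and IL-22 (0.275%). The NF-κB list had 2 raised with IFNα (0.91%), 1 raised with IFNγ and 1 lowered with TGF-β1 (3.72% of promoter-class regions fell). The receptor list had 2 raised with OSM.

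Averaged over the 5 main promoters and centred, the profile over the 11 groups ran from -0.59 with TGF-β1 to 0.8 with TNF on the log2 scale. Between any pair of the 5 genes, Pearson's r over the 11 group means was 0.77 to 0.964, where the points share libraries and depth. Among 21641 promoter-class regions of other genes, the profiles most like this mean were those of KCTD8 (r = 0.933), TRIM25 (0.932), MAML2 (0.93), CYB5R2 (0.926) and SPPL2A (0.926). Their own ranges were 0.65 to 1.64, against 1.39 for the members' mean. These values are descriptions over 11 means.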

How the data were processed

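The authors aligned paired-end reads to hg38 with the ENCODE ATAC-seq pipeline and called peaks with MACS2. Per 500-base region, the deposited signal is the summed read coverage, unscaled for library size; the study describes 500-base peaks from its single-cell data and separate bulk peaks, but which of these the table holds is not stated in the sources used here. The commonest low value, 75, was taken as 1 read. Values cover whole reads rather than transposase cut sites.

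Coverage was divided by the library total in Mb and by a composition factor (30% of log ratios and 5% of means trimmed at each end). With a pseudocount of 0.5 added before taking log2, changes of low regions are understated. Regions with a log2 mean of -3 or below were left out (207). limma 3.58.1 in R 4.3.3 was fitted to all 44 libraries with group as the only term and a mean-variance trend, and adjusted over 407176 regions in each of 12 contrasts. The fit was tested on simulated data. Coordinates are as deposited, and strings were read from hg38 taking them as 1-based.

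Named regions were each gene's main promoter, its largest changes with TNF and IL-1β, and the largest called change of every other contrast. Other regions named were chosen after their values were seen. The members and lists were chosen with earlier results of these data known. Alternatives changed the scaling, pseudocount, filter, libraries fitted, replicate block, weights and trend, and left out each library of the 2 groups compared in turn, and IL-6 replicate 4.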

Additional observations from a re-analysis of the deposited data

Results flagged for a closer look

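At the CXCL5 promoter, IL-1β replicate 3 (11.8 per Mb) stood apart from the other 3 libraries (7.58 to 7.78), with a gap of 0.951 of the group's range. In the IFNγ group at the same promoter, replicate 3 (2.74) stood below the others (3.55 to 3.66), with a gap of 0.874. Chance flags about 1 in 20 groups, and 55 were examined.

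IL-1β and TNF differed in the fit at the CXCL1 region 50481 bases past its start, by -1.38, and behind CXCL5 at 4109 bases, by 1.36. IL-1β and IL-17A differed at 17 regions, with the largest difference, 3.07, in that same region behind CXCL5.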

How the results depend on the processing

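With TNF, 25 of 29 calls and with IL-1β 24 of 29 held under every alternative in which the region was tested (10 settings, each library of the 2 groups compared, and IL-6 replicate 4), as did 7 of 10 with TGF-β1, 9 of 17 for IL-1β against IL-17A, 1 of 5 with OSM and 0 of 3 with IL-17A, 0 of 2 with IL-13, 0 of 1 with IFNγ and 0 of 2 for IL-1β against TNF. Some of these regions had a mean under 1 per Mb and were not tested in the setting that required at least 1. No called region changed direction. Leaving out 1 library of the 2 groups compared gave 27 to 30 calls with TNF, 26 to 31 with IL-1β, 1 to 4 with IL-17A, 2 to 6 with OSM, 0 to 1 with IL-6 (1 without IL-6 replicate 1), 0 to 2 with IL-13, 8 to 11 with TGF-β1, 0 to 1 with IFNγ, 0 to 1 for IL-1β against TNF and 11 to 16 for IL-1β against IL-17A. Without IL-6 replicate 4 in the shared fit, chosen after seeing the data, the counts were 31, 31, 4, 6, 0, 2, 11, 1, 2 and 18 in that order. IL-13 kept 1 call under library totals, median-of-ratios, quality weights or no trend, and 0 with a pseudocount of 0.1. IFNγ kept 0 with a pseudocount of 0.1 or 2 or without a trend. IL-1β against TNF gave 0 with a pseudocount of 0.1 or without a trend, 5 with a pseudocount of 2, 1 with no filter or with a mean of at least 1 per Mb, and 6 in the fit of 2 groups only. That fit gave 6 with IL-17A and 9 with OSM, and without a trend these were 0 and 1. Causes were not tested. With the replicate block, IL-1β against TNF gave 1 call and IL-1β against unstimulated 30; the other counts were as reported. Residual correlations of same-numbered libraries over all tested regions were near 0, with none of 4 pairs above 0.1 in any contrast. The best match had the same number for 3 of 4 libraries in OSM against unstimulated and in IL-1β against IL-17A. In the other contrasts this held for 0 to 2 of 4. Counting error in low regions pulls such correlations towards 0, so pairing by replicate number is not excluded. Depth limits the regions under 1 per Mb.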
